A study of Homo sapiens with 10 samples.

Results

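The genes described here were 37 genes of the integrated stress response and the unfolded protein response, taken by name from a list of ATF4-linked and endoplasmic reticulum (ER) stress genes, out of 19974 protein-coding genes on chromosomes 1 to 22 and X. The rule itself uses no measured value, although the list was drawn up with earlier results of these data known. They were read in DRIP-seq, in which RNA-DNA hybrids from sonicated nucleic acids of nuclei that had not been crosslinked are pulled down with the S9.6 antibody and sequenced. The cells were U2OS, a human osteosarcoma line, with 3 libraries of the genotype TDP1 H493R, called SCAN1, and 2 libraries of WT cells. SCAN1#1 gave 2 of the SCAN1 libraries, replicate 1 in experiment 1 and replicate 2 in experiment 2, SCAN1#2 gave replicate 2 in experiment 2, and WT gave replicate 1 in experiment 1 and replicate 2 in experiment 2. TDP1 removes trapped topoisomerase I from DNA ends, and the allele is known from a spinocerebellar ataxia with axonal neuropathy. The labels do not say how the SCAN1 lines were made, whether each is 1 clone, or whether replicates came from separate cultures, so p-values measure only the spread between these libraries. No stress treatment is named for any sample, so all values are from cells under their own growth conditions. The values of the 3 SCAN1 libraries are listed in the order SCAN1#1 replicate 1, SCAN1#1 replicate 2 and SCAN1#2 replicate 2, and the WT values as replicate 1 and replicate 2.

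In the integrated stress response, kinases that sense amino acid shortage, ER stress, double-stranded RNA or lack of haem phosphorylate the initiation factor eIF2, which lowers general translation and lets the transcription factor ATF4 be made. ATF4 and its partners then raise genes for amino acid uptake and synthesis, for redox balance and, when stress lasts, for cell death through DDIT3. In the unfolded protein response, sensors in the ER membrane act through spliced XBP1, cleaved ATF6 and ATF4 on chaperones, disulfide isomerases and the machinery that removes misfolded proteins. RNA-DNA hybrids form where a transcript pairs with its template strand, often just after the start of a gene in GC-rich sequence.

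Each gene was taken with 1 kb on either side, and the percent of its bases under peaks was computed after each list had been cut to its 63456 strongest peaks, the length of the shortest list. This percent is an extent of called hybrid, not an RNA level, and in a bulk pull-down fewer cells with a hybrid and fewer hybrids per cell cannot be told apart. The weakest peak kept had a -log10 p of 3.87, 9.92 and 7.75 in the SCAN1 libraries and of 6.13 and 7.69 in the WT libraries, so equal lists differ in how strong their last peak is. All protein-coding genes averaged 9.08%, 7.75% and 6.54% in the SCAN1 libraries and 8.87% and 6.78% in the WT libraries, higher in experiment 1. Of 8 osteosarcoma and mesenchymal marker genes, 6 had a peak in all 5 libraries, among them COL1A1 and VIM, while COL1A2 and S100A4 had none in these lists. Their mean cover was 11.3% to 14.5% in the SCAN1 libraries and 18.9% to 26.0% in the WT libraries, a difference whose part in the results below was not tested. The mean of 5 epithelial markers was 8.27%, 12.5% and 4.46% in the SCAN1 libraries and 3.40% and 3.79% in the WT libraries, a difference the other way that was likewise not tested against the results. That of 5 blood cell markers stayed between 0% and 0.575%, and that of 4 neuronal and glial markers between 2.00% and 3.85%. Peak lists cannot show the TDP1 allele, and the depth of the libraries is not stated in the labels or the lists.

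All 37 genes had a peak in at least 1 library, and 25 of them (67.6%) had one in all 5 libraries, against 47.9% of all protein-coding genes. The median over the genes of the mean percent covered was 12.4%, against 1.29% over all protein-coding genes. Much of the list is short, with a median length of 12723 bases against 24170.5 over all protein-coding genes, and cover went with length. The 18 members shorter than 10 kb had a median of 46.2% against 1.13% over all genes of that length, the 13 members of 10 to 50 kb had 5.36% against 2.38%, and the 6 members of 50 kb or more had 0.793% against 0.814%. By medians, cover thus stood far above the level of other genes among the short members and near it among the long ones. Of the 5658 genes shorter than 10 kb, 2599 had no peak in any library, so their median is low. By means the gap among short genes was smaller. Short members had at least 34.7% in every library, and all genes of that length at most 17.04%. Long members had at least 2.53%, and all long genes at most 1.93%, so means put the long members above. Of these 6 members only CANX had a mean cover of at least 2%. Averaged over the 37 genes, the SCAN1 libraries had 26.2%, 21.9% and 19.6% and the WT libraries 30.4% and 23.6%.

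**Figure D1:**
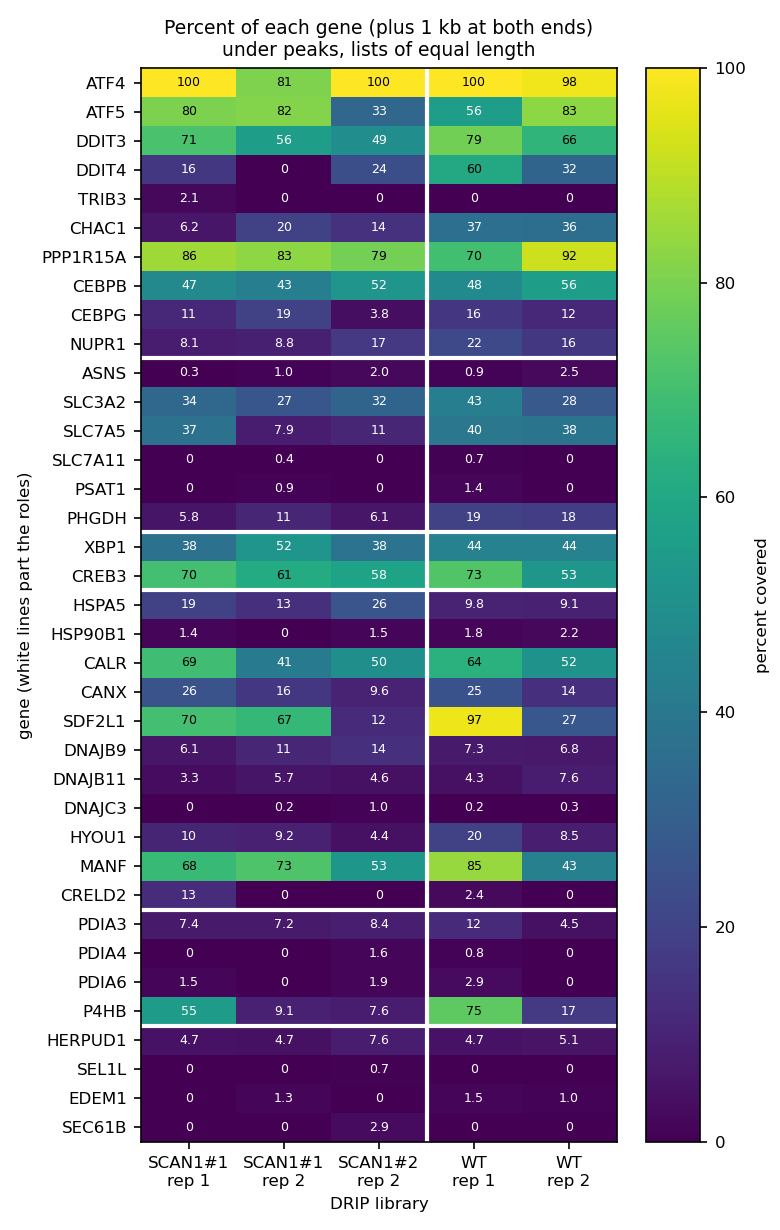
Heat map of the percent of each of the 37 genes, with 1 kb added at both ends, that lay under peaks in each DRIP library, with SCAN1 columns left of WT columns and white lines between roles. ATF4 stayed between 80.6% and 100% in all 5 columns, while genes such as SEL1L and SEC61B were at 0 in 4 of 5.

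The ATF4-linked regulators had a mean over 10 genes of 42.9%, 39.1% and 37.1% in the SCAN1 libraries and 48.7% and 49.1% in the WT libraries. ATF4 itself, the transcription factor at the centre of the response (chromosome 22, 39520559 to 39522686, GRCh38), was covered to 100%, 80.6% and 100% in the SCAN1 libraries and to 100% and 98.0% in the WT libraries. All 5 libraries were close to full cover, with SCAN1#1 replicate 2 the lowest. A single peak 12473 to 14530 bases wide ran over the whole gene and beyond it, with a fold enrichment, the authors' own value for a peak, of 39.7, 41.9 and 53.5 in the SCAN1 libraries and 30.7 and 54.7 in the WT libraries. Its summit lay 1939 to 1982 bases after the gene start in all 5 libraries, near the far end of this short gene. PPP1R15A, the phosphatase subunit that restores eIF2 and so ends the response, was covered to 85.8%, 82.9% and 78.9% in the SCAN1 libraries and 69.6% and 92.3% in the WT libraries. The WT values lay on either side of the SCAN1 values.

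ATF5, a transcription factor translated under stress much as ATF4 is, was covered to 80.3%, 81.6% and 33.0% in the SCAN1 libraries and 56.1% and 83% in the WT libraries. SCAN1#2 was the lowest, and the groups overlapped. The ATF5 window also holds parts of IL4I1, NUP62 and MIR4751, and the deposited lists carry no strand, so hybrids of these genes cannot be told apart from those of ATF5. CEBPB, a transcription factor that pairs with ATF4, was covered to 47.0%, 42.7% and 52.0% in the SCAN1 libraries and 47.8% and 55.6% in the WT libraries, with overlapping groups. Its strongest summit lay 2412 to 2514 bases after the start, beyond the annotated end of this short intronless gene. DDIT3, DDIT4 and CHAC1 are given with the comparison of the genotypes. The other 3 regulators had the lowest means of the 10, at 12.4% (CEBPG), 14.3% (NUPR1) and 0.419% (TRIB3). CEBPG, another partner of ATF4, had between 3.79% and 19.2%, and NUPR1, a small stress-induced nuclear protein, between 8.10% and 22%. TRIB3, a pseudokinase that ATF4 and DDIT3 switch on, had 2.10% in SCAN1#1 replicate 1 and 0 in the other 4 libraries.

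Among the 6 genes of amino acid supply, SLC3A2, the heavy chain shared by several amino acid transporters, was covered to 33.7%, 26.6% and 32.3% in the SCAN1 libraries and 42.8% and 28.0% in the WT libraries. The groups overlapped. Its strongest peak had a fold enrichment of 28.6, 52.4 and 36.1 in the SCAN1 libraries and 34.3 and 29.2 in the WT libraries. The summit lay at -658 to -597 bases from the start given in the promoter table. That start lies inside the gene span of the gene table, and so did the summit. The small nucleolar RNA host gene SNHG1 lies in the same window, so that hybrids of these genes cannot be told apart. ASNS, which makes asparagine, and SLC7A11, the cystine transporter, are both long genes and reached at most 2.51% and 0.744%. PSAT1, of serine synthesis, reached at most 1.38%.

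The windows of both membrane-linked transcription factors held peaks in every library. XBP1, whose spliced mRNA encodes the factor made when the sensor IRE1 is active, was covered to 37.8%, 52.1% and 38.1% in the SCAN1 libraries and 44.5% and 44.2% in the WT libraries. SCAN1#1 replicate 2 was the highest and the other SCAN1 libraries the lowest. CREB3, a membrane-bound factor released by cleavage, had 70.2%, 61.4% and 58.1% in the SCAN1 libraries and 72.9% and 52.8% in the WT libraries. Its window also holds parts of TLN1, MIR6853 and GBA2, so that hybrids of these genes cannot be told apart. The strongest summit lay anywhere from -1118 to 9334 bases from the start of CREB3, a gene of 4334 bases.

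The 11 ER chaperones and co-chaperones split into well covered and sparse genes. SDF2L1, a small partner of the main ER chaperone, was covered to 70.0%, 66.5% and 12.0% in the SCAN1 libraries and 97.3% and 27.3% in the WT libraries, the widest spread of any member within a genotype. MANF, a secreted ER stress protein, had 67.9%, 72.6% and 53.0% in the SCAN1 libraries and 84.6% and 43.5% in the WT libraries, with the SCAN1 values between the WT values. CALR, the calcium-binding lectin chaperone calreticulin, had 69.3%, 40.7% and 49.8% in the SCAN1 libraries and 63.9% and 51.5% in the WT libraries. The groups of all 3 genes overlapped. CANX, the membrane-bound partner of CALR in glycoprotein folding, ranged from 9.63% to 25.6%, and HYOU1, a chaperone and nucleotide exchange factor, from 4.40% to 19.7%. DNAJB11, a co-chaperone of HSPA5, ranged from 3.33% to 7.58%, HSP90B1, the ER member of the HSP90 family, reached at most 2.23%, and DNAJC3, which helps HSPA5 and binds an eIF2 kinase, reached at most 0.964%.

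Of the 4 disulfide isomerases, P4HB, the founding member of the family, ranged from 7.63% to 75.4% and PDIA3, the partner of CALR and CANX, from 4.53% to 11.8%. PDIA4 and PDIA6 reached at most 1.6% and 2.95%. Of the 4 genes of ER-associated degradation and translocation, HERPUD1, a membrane protein of the degradation complex, was the only one with a peak in all 5 libraries, at 4.67% to 7.65%. SEL1L, its partner in that complex, EDEM1, which marks glycoproteins for removal, and SEC61B, a subunit of the protein channel, reached at most 0.728%, 1.48% and 2.91%.

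In many members the summit of the strongest peak lay just after the gene start. Starts and strands were given for 34 of the 37 genes, all but NUPR1, SLC7A11 and PDIA3. For some of them, among them SLC3A2, CANX, ASNS and PDIA6, the start given lies inside the gene span. Bases more than 1 kb before such a start count as interior here. Per library, 23.5% to 35.8% of their covered bases lay within 1 kb of the start. More of them, 44.4% to 59.3%, lay in the interior, over 1 kb from both ends. Over the 6832 tested genes with a strand these shares were 16.9% to 23.2% and 65.2% to 70.2%. Tested genes had a mean cover of at least 2%, whereas these 34 members include some below it. Members were also short, with a median length of 12723 bases against 24170.5 over all protein-coding genes. A start window of fixed size takes a larger part of a short gene. The part of either in these shares was not tested. The window of 1 kb on either side of the start was covered to 41.0%, 34.8% and 35.8% on average over these 34 in the SCAN1 libraries and to 42.6% and 38.4% in the WT libraries. Over the 6832 tested genes with a strand the same window had 31.3%, 30.8% and 30.0% in the SCAN1 libraries and 30.5% and 26.4% in the WT libraries. The summit of the strongest peak lay 0 to 1000 bases after the start in all 5 libraries for 9 of 24 tested members (37.5%), against 782 of 6832 genes (11.4%). These 9 were ATF5, CEBPG, SLC7A5, XBP1, HSPA5, CANX, DNAJB9, DNAJB11 and HERPUD1.

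The place of the summit varied little between libraries in several of them. The HSPA5 summit lay 308 to 343 bases after the start, the CANX summit 139 to 229, the DNAJB11 summit 520 to 556, the SLC7A5 summit 212 to 304 and the XBP1 summit 309 to 461. At HSPA5, which encodes the main ER chaperone (chromosome 9, 125234853 to 125241343), this peak had a fold enrichment of 12.1, 34.7 and 24.4 in the SCAN1 libraries and 23.1 and 19.4 in the WT libraries. At XBP1 it had 12.9, 36.7 and 37.2 in the SCAN1 libraries and 11.9 and 31.5 in the WT libraries, and at CANX 20.8, 39.9 and 32.8 in the SCAN1 libraries and 16.4 and 30.5 in the WT libraries. At XBP1 and CANX both libraries of experiment 1 had the lowest folds.

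**Figure D2:**
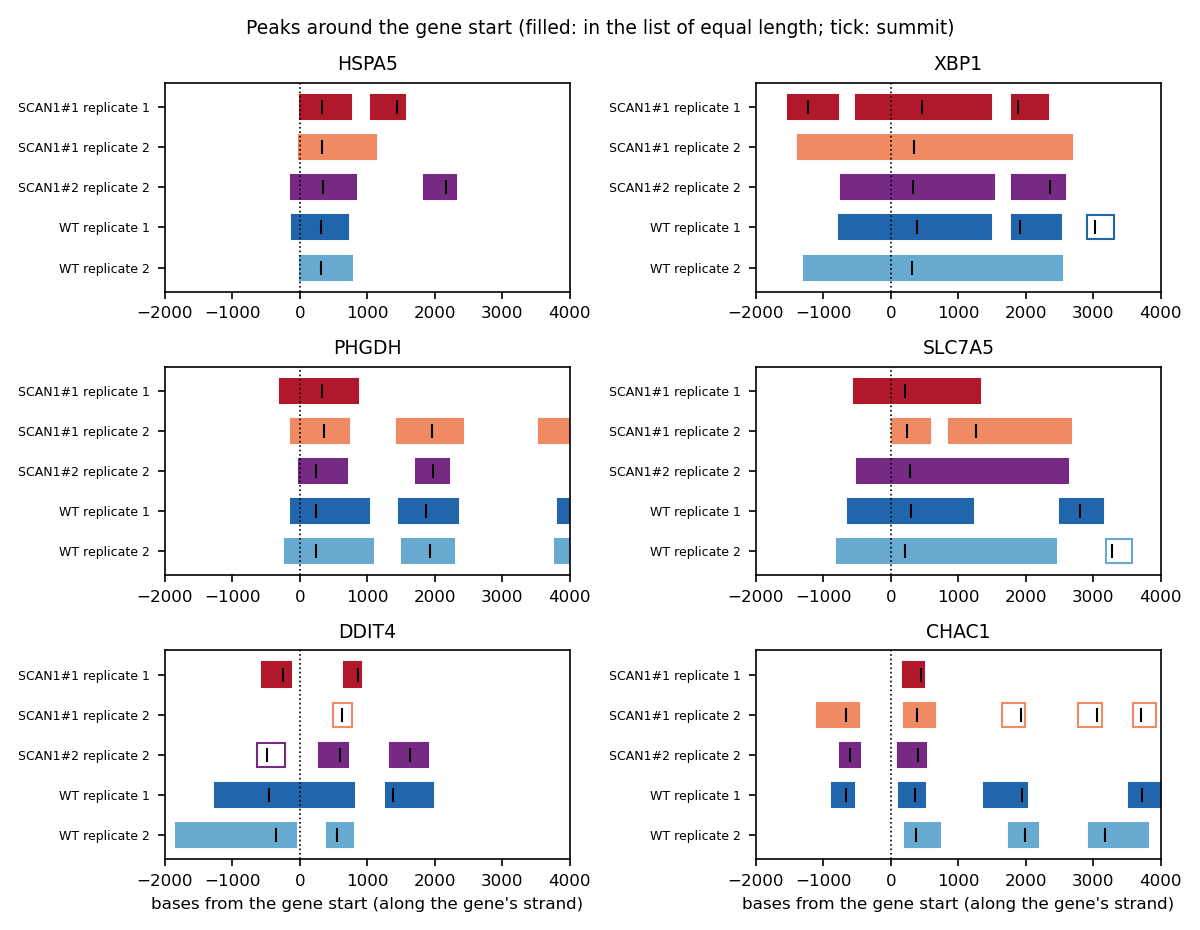
Peaks around the start of 6 genes, in bases from the start along the strand of the gene, 1 row per library with the SCAN1 libraries above the WT libraries, as filled bars (kept in the lists of equal length) or open bars (deposited but not kept), with a tick at each summit. The peak after the start of HSPA5 stands at the same place in all 5 rows, and the CHAC1 peaks more than 1 kb past the start are filled in the WT rows and open or missing in the SCAN1 rows.

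Peaks reached into the promoter windows of these genes more often than into those of other genes. The window from 250 bases before to 50 bases after the start was touched by a peak in all 5 libraries for 11 of 34 members (32.4%), against 10.6% of 15813 protein-coding promoters, and in no library for 13 members (38.2%), against 71.0%. The median GC content of the window was 67.2% in members and 62.7% over all, and the median GC skew, the excess of G over C as a fraction of both, was 0.078 and 0.0099. The response elements of these pathways were searched in the same windows on both strands. The ER stress element, CCAAT, then 9 bases of any kind, then CCACG, which ATF6 binds with NF-Y, was found in 6 members (17.6%), against 0.120% of all promoters: XBP1, HSPA5, HSP90B1, CALR, CANX and CRELD2. The C/EBP-ATF element TGATGNAAN was found in 4 members (11.8%), against 2.54%: CHAC1, ASNS, SLC3A2 and HERPUD1. The unfolded protein response element TGACGTGG was found in 1 member, HYOU1 (2.94%), against 0.835%. No member window held more than 1 kind of element, and a match is a run of letters, not a measured binding site.

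The 250 bases before the start are printed for 3 members with an ER stress element whose window of 300 bases was touched by a peak in every library, and for ATF4, which matched none of the 3 elements, so that the element can be set against the place of the hybrid. The windows of XBP1 and CANX lay wholly under a peak in all 5 libraries. That of HSPA5 was covered to 17.7%, 21.3% and 58.7% in the SCAN1 libraries and to 53.7% and 15.3% in the WT libraries, and in WT replicate 2 the peak began 4 bases after the start, beyond the printed bases. The sequences are from RefSeq, GRCh38.p14, each read 5′ to 3′ on the strand of the gene, with the ER stress element in capitals. XBP1 is read from the minus strand at chr22:28800570-28800819, HSPA5 from the minus strand at chr9:125241344-125241593, CANX from the plus strand at chr5:179698679-179698928 and ATF4 from the plus strand at chr22:39520309-39520558.
XBP1: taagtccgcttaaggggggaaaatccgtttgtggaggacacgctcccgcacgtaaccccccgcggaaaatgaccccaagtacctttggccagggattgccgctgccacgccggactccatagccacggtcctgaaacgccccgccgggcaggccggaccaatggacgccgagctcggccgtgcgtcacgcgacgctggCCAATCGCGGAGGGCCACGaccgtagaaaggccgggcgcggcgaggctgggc
HSPA5: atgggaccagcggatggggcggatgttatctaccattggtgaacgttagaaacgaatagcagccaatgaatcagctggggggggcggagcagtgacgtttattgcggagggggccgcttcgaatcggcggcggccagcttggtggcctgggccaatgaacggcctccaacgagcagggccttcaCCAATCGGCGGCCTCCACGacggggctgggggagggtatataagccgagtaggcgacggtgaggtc
CANX: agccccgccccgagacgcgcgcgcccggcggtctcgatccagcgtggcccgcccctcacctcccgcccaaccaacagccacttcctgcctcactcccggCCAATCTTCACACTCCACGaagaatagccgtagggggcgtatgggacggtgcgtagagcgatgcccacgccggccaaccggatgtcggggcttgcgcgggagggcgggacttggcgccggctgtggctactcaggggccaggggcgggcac
ATF4: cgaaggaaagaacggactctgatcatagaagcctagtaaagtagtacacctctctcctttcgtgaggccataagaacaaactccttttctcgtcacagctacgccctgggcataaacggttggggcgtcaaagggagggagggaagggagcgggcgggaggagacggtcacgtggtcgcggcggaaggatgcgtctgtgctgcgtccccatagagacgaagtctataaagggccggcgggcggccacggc
Counted from the start, the element began at base -52 in XBP1, -66 in HSPA5 and -151 in CANX, while the summits of the hybrid peaks lay on the other side of the start, within the transcribed part. The start of CANX in the promoter table lies inside the gene span of the gene table, so another transcript of CANX begins upstream of it.

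The first comparison set SCAN1 against WT. Of the 37 members, 26 had a mean cover of at least 2% and were tested, as were 8472 protein-coding genes in all. The other 11 were too thinly covered: TRIB3, ASNS, SLC7A11, PSAT1, HSP90B1, DNAJC3, PDIA4, PDIA6, SEL1L, EDEM1 and SEC61B. By limma with Benjamini-Hochberg adjustment over all tested genes, no member and no other gene passed an adjusted p of 0.05 in either direction (0% called), and the adjusted p of each tested member was 1. At an unadjusted p under 0.05, 3 members were lower in SCAN1 (DDIT4, CHAC1 and PHGDH), where 1.55% of all tested genes were lower, and none was higher, where 1.94% of all were. The SCAN1 and WT values did not overlap for 4 members that were lower in SCAN1, which are the same 3 and SLC7A5, against 6.86% of all tested genes, and for 1 that was higher, HSPA5, against 9.48%. In the lists as deposited the values stayed apart for 2 members lower in SCAN1, SLC7A5 and PHGDH, against 5.95% of all tested genes, and for HSPA5 on the high side, against 8.66%. The difference was below 0 for 19 of 26 members, against 48.5% of all tested genes, and above 0 for 7, against 51.5%, and its median was -4.47 percentage points over the members, against 0.081 over all tested genes. That median rested on the WT libraries: leaving out WT replicate 1 gave -0.317, and leaving out WT replicate 2 gave -8.88.

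**Figure D3:**
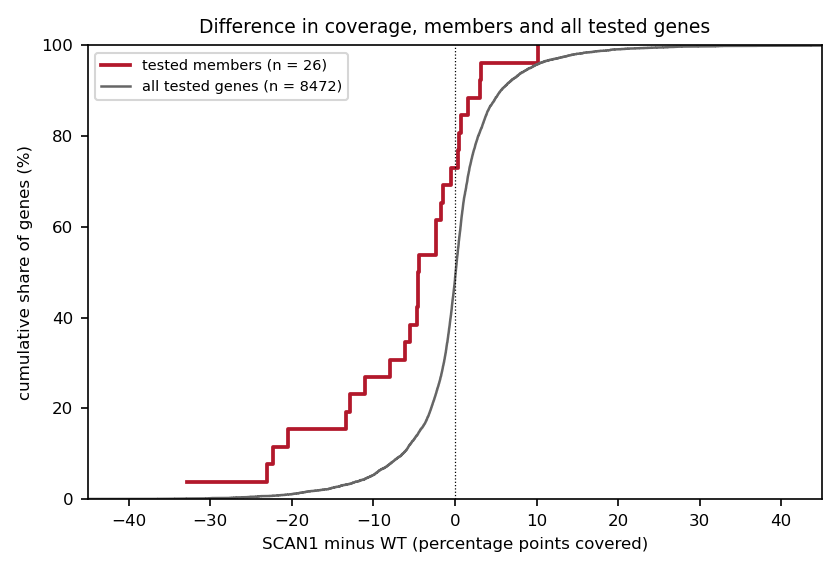
Cumulative share of genes, in percent, against the SCAN1 minus WT difference in percentage points of the gene covered, for the 26 tested members and all 8472 tested genes. The member curve lies to the left of the curve of all genes over most of its range, with a median of -4.47 against 0.081, and ends at HSPA5.

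The 4 members that did not overlap on the low side were regulators or amino acid supply genes linked to ATF4. DDIT4, a stress-induced inhibitor of mTOR signalling (chromosome 10, 72273924 to 72276036), was covered to 16.3%, 0% and 24.0% in the SCAN1 libraries and to 60.4% and 32.3% in the WT libraries. Every SCAN1 library lay below both WT libraries, with SCAN1#1 replicate 2 at 0 in the lists of equal length. The difference was -32.9 percentage points (SE 11.9), with an unadjusted limma p of 0.0371, and it came to -18.9 without WT replicate 1 and -46.9 without WT replicate 2. Most of the covered bases of the WT libraries lay at the start of the gene, where the window of 1 kb on either side was covered to 33.6%, 0% and 21.1% in the SCAN1 libraries and 89.8% and 66.4% in the WT libraries. Both WT libraries had a broad peak there, 2047 and 1787 bases wide with summits at -450 and -358 bases from the start, in a window that also holds DDIT4-AS1. The groups overlapped in the lists as deposited, where SCAN1#2 had 34.3% and WT replicate 2 had 32.3%.

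CHAC1, which breaks down glutathione (chromosome 15, 40953471 to 40956512), was covered to 6.25%, 19.5% and 14.1% in the SCAN1 libraries and to 36.7% and 36.1% in the WT libraries. All SCAN1 values were below the WT values, which were close together. The difference was -23.1 points (SE 6.19), with an unadjusted limma p of 0.0119. The peak just after the start was called in all 5 libraries, with summits from 360 to 447 bases after it. The interior of the gene, from 1 kb after the start to 1 kb before the end, was at 0% in each SCAN1 library and at 61.6% and 27.7% in the WT libraries. The deposited list of SCAN1#1 replicate 2 held 3 weaker peaks, 1 in the interior with a fold of 2.81 and 2 around and past the gene end with folds of 3.71 and 3.78, which brought that library to 40.1%, above both WT libraries. The difference was -6.92 points with only peaks of a -log10 q of at least 5.

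PHGDH, the entry enzyme of serine synthesis (chromosome 1, 119711934 to 119744215), was covered to 5.84%, 10.8% and 6.09% in the SCAN1 libraries and to 19.2% and 18.0% in the WT libraries. The groups did not overlap here, nor in the lists as deposited, where the SCAN1 libraries had 5.84%, 14.4% and 6.09% and the WT libraries 23.3% and 22.8%. The difference was -11.0 points (SE 3.0), with an unadjusted limma p of 0.0128, and was -7.26 at a -log10 q of at least 5 and -6.61 in windows at the gene ends. Cover of the start window overlapped, at 57.8%, 43.1% and 35.9% in the SCAN1 libraries and 56.7% and 60.9% in the WT libraries, while the interior had 2.80%, 9.41% and 4.52% in the SCAN1 libraries and 18.0% and 16.4% in the WT libraries. Its surroundings, 2.5 Mb on either side, averaged 0.757% in SCAN1 and 0.775% in WT.

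SLC7A5, the light chain that with SLC3A2 imports large neutral amino acids (chromosome 16, 87830023 to 87869507), was covered to 37.3%, 7.87% and 10.9% in the SCAN1 libraries and to 39.8% and 38.5% in the WT libraries. The SCAN1 libraries of experiment 2 were low, whereas SCAN1#1 replicate 1 was near the WT libraries. The difference was -20.5 points (SE 10.8), with an unadjusted limma p of 0.112. It was -9.76 at a -log10 q of at least 5, -7.66 in windows at the gene ends, and between -29.8 and -15.1 when a library was left out. The peak after the start was in every library, and the interior had 33.8%, 6.82% and 7.98% in the SCAN1 libraries and 39.7% and 36.4% in the WT libraries. The flanks of 2.5 Mb had 3.78%, 3.58% and 2.82% in the SCAN1 libraries and 4.12% in each WT library, a shift in the same direction whose part in the result was not tested.

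**Figure D4:**
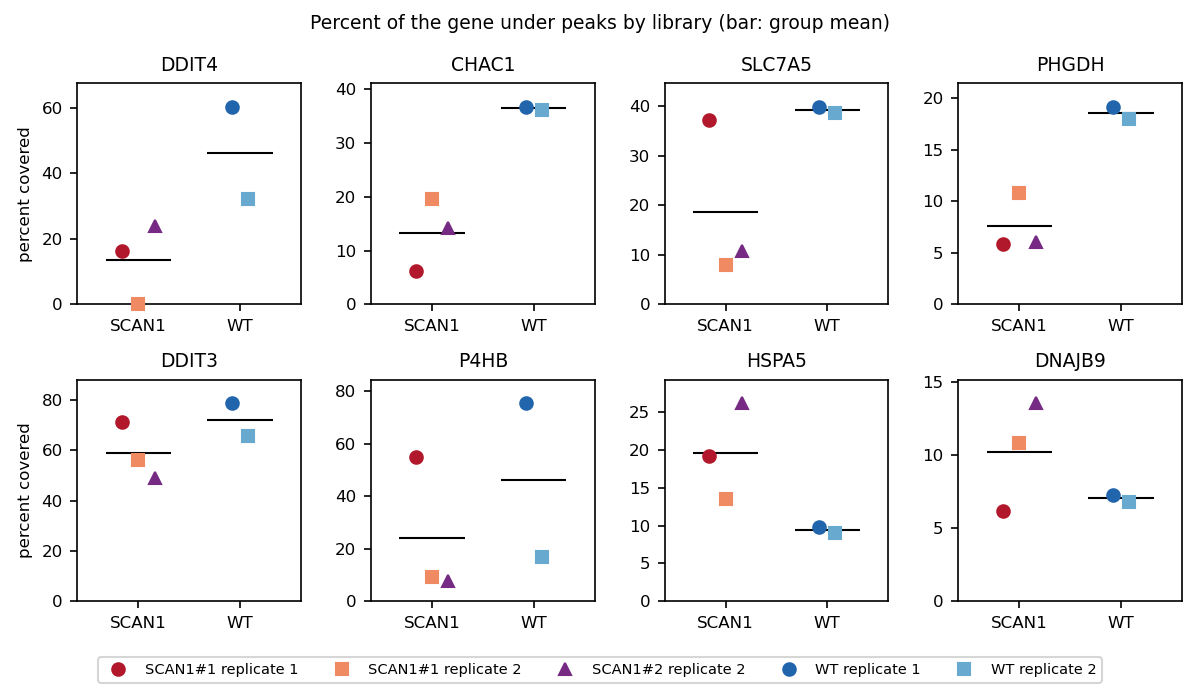
Percent of each of 8 genes, with 1 kb added at both ends, under peaks in each library, with SCAN1 left of WT and a bar at the group mean. DDIT4, CHAC1, SLC7A5 and PHGDH have every SCAN1 point below both WT points, HSPA5 has every SCAN1 point above them, and the P4HB points part by experiment.

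HSPA5 was the member with the largest positive difference and the only tested one whose SCAN1 values all exceeded WT. It was covered to 19.2%, 13.5% and 26.2% in the SCAN1 libraries and to 9.78% and 9.06% in the WT libraries. The difference was 10.2 points (SE 4.86), with an unadjusted limma p of 0.0855, and the groups also stayed apart in the lists as deposited, at 19.2%, 33.1% and 26.2% in the SCAN1 libraries and 9.78% and 9.06% in the WT libraries. Its size moved with the setting: 16.7 points as deposited, 3.22 at a -log10 q of at least 5, 2.83 in windows at the gene ends, and 6.91 without SCAN1#2. The start window differed little, at 38.1%, 50.7% and 48.0% in the SCAN1 libraries and 41.5% and 38.4% in the WT libraries, and the interior had 19.3%, 2.87% and 28.2% in the SCAN1 libraries and 0% in both WT libraries. The flanks of 2.5 Mb had 3.26%, 3.23% and 2.53% in the SCAN1 libraries and 2.28% and 2.12% in the WT libraries, and RABEPK and HSPA5-DT lie partly in the window. The part of neither in the result was tested.

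DDIT3, the factor also called CHOP that links long-lasting stress to cell death (chromosome 12, 57516588 to 57520517), was covered to 71.4%, 56.1% and 48.9% in the SCAN1 libraries and to 78.7% and 65.6% in the WT libraries. The SCAN1 value was below the WT value within each experiment, but SCAN1#1 replicate 1 exceeded WT replicate 2. The difference was -13.4 points (SE 10.2), with an unadjusted limma p of 0.241, and ranged from -19.9 to -6.81 when a library was left out, and the window is shared with MARS1, MBD6, MIR616 and LOC128125814. ATF4 and XBP1 differed by -5.47 (SE 6.66) and -1.71 points (SE 9.73), with overlapping groups.

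On the other side of 0, DNAJB9, a co-chaperone of HSPA5, had 6.13%, 10.8% and 13.5% in the SCAN1 libraries and 7.30% and 6.79% in the WT libraries, a difference of 3.13 points (SE 2.82) that ranged from 1.45 to 5.15 when a library was left out. CRELD2, a secreted ER stress protein, had 12.6%, 0% and 0% in the SCAN1 libraries and 2.38% and 0% in the WT libraries, so its difference of 3.02 points (SE 4.18) came from SCAN1#1 replicate 1. HERPUD1 had 4.72%, 4.67% and 7.65% in the SCAN1 libraries and 4.69% and 5.09% in the WT libraries, a difference of 0.790 points (SE 1.51). All 3 overlapped between genotypes, as did MANF at 0.458 (SE 14.6) and PPP1R15A at 1.6 points (SE 7.70).

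By role, the difference was below 0 for 8 of 9 tested ATF4-linked regulators (median -5.47 points), for all 3 tested genes of amino acid supply (median -11.0) and for both tested disulfide isomerases (median -11.4). Among 9 tested chaperones and co-chaperones it was below 0 for 5 and above 0 for 4 (median -1.42). The experiment was named in the labels, so the fit was repeated with it as a replicate block. With the block the same 3 members, DDIT4, CHAC1 and PHGDH, had an unadjusted limma p under 0.05, against 2.6% of all tested genes on that side, no member was higher, against 3.52%, and the smallest adjusted limma p of a member was 0.742. The median over the tested members was then -2.71 points, against 0.291 over all tested genes.

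Other genes of the same pathways were described beside the members. No gene of these lists passed an adjusted limma p of 0.05. The difference was below 0 for 7 of 11 tested sensors and eIF2 factors (18 in the list, median -1.85 points), for 11 of 16 other ATF4-linked genes (28, median -0.802) and for 10 of 13 cytosolic aminoacyl-tRNA synthetases (20, median -4.18), a group of ATF4 targets that charge tRNAs. It was below 0 for 5 of 10 other ER folding genes (22, median -0.128), but for 2 of 10 other genes of ER-associated degradation (15, median 0.842) and for 2 of 11 other genes of ER translocation (15, median 1.18). In the order of these lists, all SCAN1 values lay above WT for 1, 2, 0, 0, 0 and 2 genes, against 9.48% of all tested genes. They lay below for 2, 3, 1, 0, 1 and 0 genes, against 6.86%. At an unadjusted limma p under 0.05, 1 sensor or eIF2 factor and 1 translocation gene were higher, against 1.94%. Lower were 1 other ATF4-linked gene and 1 degradation gene, against 1.55%.

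Within those lists, EIF2B5, a subunit of the exchange factor that reloads eIF2, had 17.3%, 13.5% and 14.2% in the SCAN1 libraries and 7.56% and 7.63% in the WT libraries. All SCAN1 values were higher, by 7.43 points (SE 2.80) with an unadjusted limma p of 0.0420. SELENOS, a membrane selenoprotein of ER-associated degradation, had 8.01%, 4.13% and 6.95% in the SCAN1 libraries and 12.2% and 14.9% in the WT libraries. All SCAN1 values were lower, by -7.15 points (SE 2.37) with an unadjusted limma p of 0.0271. EIF2S2, a subunit of eIF2, had 20.9%, 17.5% and 20.5% in the SCAN1 libraries and 41.0% and 21.9% in the WT libraries. SHMT2, the mitochondrial enzyme that splits serine, had 58.9%, 59.0% and 50.9% in the SCAN1 libraries and 71.2% and 61.5% in the WT libraries. Both had every SCAN1 library below both WT libraries, with unadjusted limma p-values of 0.180 and 0.285. ATF3 and XPOT, an ATF4-induced factor and the tRNA exporter, had every SCAN1 library above both WT libraries by 1.57 (SE 0.888) and 1.71 points (SE 1.33).

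Several other pathway genes had larger differences with overlapping groups. SSR4, of the translocon-associated complex, had 56.3%, 50.6% and 23.5% in the SCAN1 libraries and 31.1% and 15.7% in the WT libraries. DERL3, of the channel for misfolded proteins, had 66.7%, 48.4% and 33.9% in the SCAN1 libraries and 38.4% and 29.4% in the WT libraries. EIF2B4 had 37.3%, 27.5% and 13.4% in the SCAN1 libraries and 63.8% and 21.4% in the WT libraries. In all 3 genes the libraries of experiment 1 were the highest of their genotype. FARSA and MARS1, tRNA synthetases for phenylalanine and methionine, differed by -14.0 (SE 14.1) and -13.7 points (SE 10.3). MARS1 lies partly in the window of the member DDIT3, so its value is not separate from that of DDIT3. PYCR1, of proline synthesis, differed by -11.0 points (SE 6.13).

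The second comparison set experiment 2 against experiment 1 in the fit that also held genotype. The antibody lots differed between the experiments, so lot and everything else that changed with the experiment cannot be told apart. No member and no other gene passed an adjusted limma p of 0.05 in either direction (0% called). At an unadjusted p under 0.05, 5 members were lower in experiment 2 (DDIT3, CALR, CANX, CRELD2 and P4HB), where 17.8% of all tested genes were lower, and none was higher, where 3.71% of all were. The values of the experiments did not overlap for 9 members lower in experiment 2, against 28.1% of all tested genes, and for 1 higher, DNAJB11, against 13.2%. The median difference was -4.66 points over the members and -1.14 over all tested genes. It was below 0 for 16 of 26 members, against 61% of all tested genes, and above 0 for 10, against 39%. In the lists as deposited the groups stayed apart for 6 members lower in experiment 2, against 18.7% of all tested genes, and for DNAJB11 on the high side, against 20.3%.

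P4HB (chromosome 17, 81843166 to 81860535) had the largest difference. It was covered to 9.11%, 7.63% and 16.9% in SCAN1#1, SCAN1#2 and WT of experiment 2, and to 54.8% and 75.4% in SCAN1#1 and WT of experiment 1. The difference was -51.6 points (SE 5.78), with an unadjusted limma p of 0.000685 and an adjusted limma p of 0.0839. No tested gene had a smaller adjusted p, but the value was tied. It was shared with the gene of smallest unadjusted limma p, 4.6e-05. In windows at the gene ends the difference was -30.9 points. The interior of the gene was covered to 6.66%, 5.07% and 16.8% in those libraries of experiment 2 and to 58.2% and 80.0% in experiment 1. The strongest peak was not in the interior: it lay before the gene start in all 5 libraries, reaching the window only through the added 1 kb. It was 1861, 1821 and 1490 bases wide in experiment 2, in the same order, and 10229 and 10255 bases wide in experiment 1. Its fold enrichment did not go with its width: it was 24.8, 24.4 and 18.6 in experiment 2 and 23.2 and 24.7 in experiment 1. The SCAN1 minus WT difference of P4HB, -22.3 points (SE 23.2), turned to 6.93 without WT replicate 1, and was -13.7 with the replicate block.

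SDF2L1 had 66.5%, 12.0% and 27.3% in SCAN1#1, SCAN1#2 and WT of experiment 2 and 70.0% and 97.3% in SCAN1#1 and WT of experiment 1. SCAN1#1 was thus near its own level of experiment 1 while the other libraries of experiment 2 were low, and the difference of -47.6 points (SE 20.6) had an unadjusted limma p of 0.0788. When a library was left out it ranged from -70.0 to -30.8 points. MANF differed by -20.5 points (SE 11.8) with overlapping experiments, and CALR by -19.0 points (SE 6.94) without overlap. Without SCAN1#1 replicate 1 these were -41.1 and -12.4 points, and the MANF difference was -5.04 without either WT library. DDIT3 differed by -16.4 (SE 5.66), CANX by -12.3 (SE 3.60) and CRELD2 by -8.23 points (SE 2.57), each without overlap between the experiments. On the other side PPP1R15A, CHAC1, XBP1 and CEBPB differed by 6.92 (SE 7.49), 5.77 (SE 4.83), 4.08 (SE 7.53) and 3.57 points (SE 6.78), all with overlap, and when a library was left out CEBPB ranged from 0.365 to 7.84 while the sign of the other 3 turned.

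**Figure D5:**
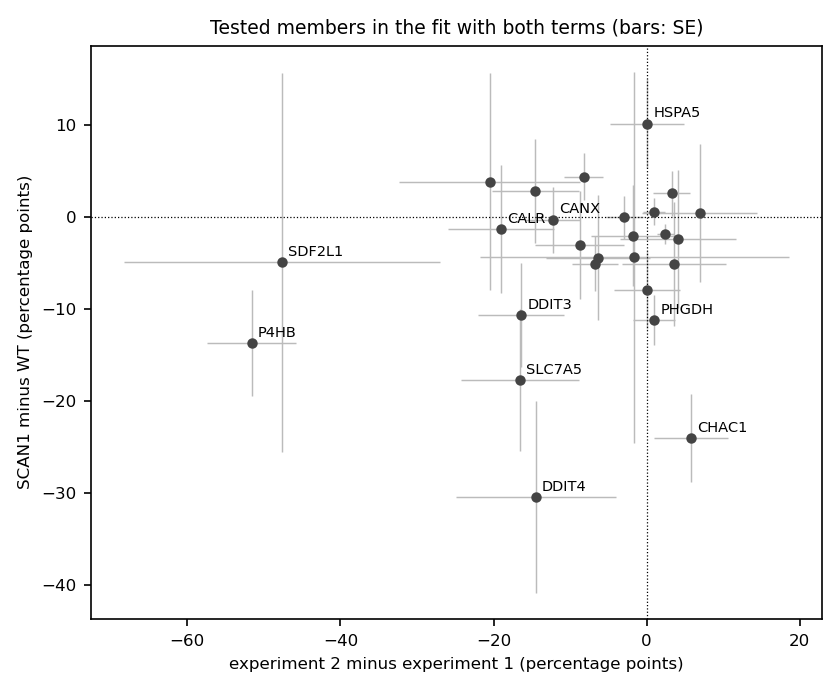
SCAN1 minus WT difference (vertical axis) against experiment 2 minus experiment 1 difference (horizontal axis), both in percentage points from the fit with both terms, for the 26 tested members, with bars of 1 SE. P4HB and SDF2L1 lie far to the left, CHAC1 and PHGDH lie low near the middle, and HSPA5 is the highest point at 10.2.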

How the data were processed

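RNA-DNA hybrids of U2OS cells were measured by DRIP-seq in 5 libraries (3 SCAN1, 2 WT). The other 5 samples, inputs, were not used here. Per the submitters' processing notes, the tools were MACS3 3.0.0a6, deepTools 3.5.1, SAMtools 1.9, BWA 0.7.17-r1188 and FastQC 0.11.5 with hg38, in no stated role or order. The control and options of peak calling were not found in the labels. The authors deposited 1 peak list per library with, per the layout of the deposited files, a score, a fold enrichment (a ratio over the caller's background) and the -log10 p and -log10 q of each peak. No source read here states the depth, and no counting interval was computed. The members and lists were chosen with earlier results of these data known.

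Each list was cut to its 63456 peaks of highest -log10 p. The percent of each protein-coding gene (RefSeq, GRCh38.p14, 1 kb added at both ends) under peaks was compared by lmFit and eBayes (trend) of limma 3.58.1 in R 4.3.3 for genes with a mean of at least 2%, with Benjamini-Hochberg adjustment over all tested genes, and tested on simulated data first. Deviations from the genotype means correlated at 0.612, 0.325 and 0.470 between SCAN1 and WT libraries of the same experiment. With 2 WT libraries, the correlations across experiments are the same values with the sign reversed, so these are not independent. The labels name the experiment, and it was used as a replicate block in a second fit. Values in every library are given for the 10 most covered members, for up to 6 members per direction by the SCAN1 minus WT difference and up to 4 per direction by the experiment difference, for ATF4, DDIT3, XBP1 and HSPA5, and other pathway genes are named from the 3 largest differences per direction of each list; the remaining members are given by range. SEs are from limma. Starts, strands and promoters of 34 members are from RefSeq (GRCh38.p14). Alternatives were the replicate block, the lists as deposited, a -log10 q of at least 5, log2(percent + 1), no filter, windows at gene ends, genes without extension, and leaving out each library. Python 3.11.15, numpy 2.4.6, pandas 2.3.3 and matplotlib 3.10.9 were used.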

Additional observations from a re-analysis of the deposited data

How the results depend on the processing

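No member passed an adjusted p of 0.05 under any of the alternatives run. With the replicate block the median SCAN1 minus WT difference over tested members was -2.71 points. With the lists as deposited, 1 member was higher and 1 lower in SCAN1 at an unadjusted limma p under 0.05. The lists of equal length gave 0 and 3, where 1.94% and 1.55% of all tested genes were called. That share was not computed for the lists as deposited, so the change in count cannot be set against all genes. On the log2 scale 3 of all tested genes, none of them a member, were higher and 1 lower at an adjusted p of 0.05. Leaving out a library, the median ranged from -8.88 to -0.317 points. The member counts given next for the experiments are at an unadjusted limma p under 0.05, not at an adjusted one. The share of all tested genes called was not computed for those settings, so these counts cannot be set against all genes either. For experiment 2 minus experiment 1, the lists as deposited gave 1 member lower and a median of 0.115, no filter gave 1 member higher and a median of -0.326, log2 gave 2 genes lower at an adjusted p of 0.05, and leaving out a library gave 2 to 4 members lower and 0 to 1 higher. The mean over the 37 genes in SCAN1#1 replicate 2 was 27.0% as deposited. The SCAN1 minus WT sign turned for MANF (-7.02 as deposited, -19.6 at the stricter q, -13.6 at gene ends, and -1.22, -3.60 and -20.1 without SCAN1#1 replicate 1, SCAN1#1 replicate 2 and WT replicate 2), HERPUD1 (-0.904 at gene ends, -0.194 without SCAN1#2), XBP1 (0.574 without SCAN1#2, 0.730 without SCAN1#1 replicate 1), CRELD2 (-1.19) and PPP1R15A (-0.0266) without SCAN1#1 replicate 1, ATF4 (1.01 without SCAN1#1 replicate 2), and PPP1R15A (-9.73) and P4HB (6.93) without WT replicate 1. The HERPUD1 and XBP1 values without SCAN1#2 were the same with the replicate block. The experiment sign turned for CHAC1 (-5.93 at the stricter q, -0.635 without SCAN1#1 replicate 1), XBP1 (-2.18 at gene ends, -0.250 without SCAN1#1 replicate 1) and PPP1R15A (-4.89 without either WT library). The causes were not tested. Over the fits that leave out a library, these genes ranged from -8.71 to 1.01 (ATF4), -1.19 to 5.12 (CRELD2), -0.194 to 1.29 (HERPUD1), -20.1 to 21.0 (MANF), -51.5 to 6.93 (P4HB), -9.73 to 12.9 (PPP1R15A) and -6.45 to 0.730 (XBP1) between genotypes, and from -0.635 to 10.6 (CHAC1), -4.89 to 22.7 (PPP1R15A) and -0.250 to 7.33 (XBP1) between experiments.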
